A study of Mus musculus with 4 samples.

Results

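Src, Ras, MAP kinase and caveolin signalling was followed in whole mouse heart through 38 genes of the cascade that the sodium pump is known to start as a signal transducer. The genes were chosen by symbol from the probe annotation. Of the 38 genes, 33 had a probe set that carried 1 gene symbol and 31 passed the filter on dim probe sets and were tested, out of 5692 tested genes and 8251 named genes on the array. The other 5 genes were not analysed here. Heterozygous mice and wild-type mice were compared in 2 pools each, and each pool was total RNA of 5 hearts of adult males, 8 to 16 weeks old, on a mixed 129 and Black Swiss background. A pool averages its animals, and nothing in the labels says that the pools of a genotype came from separate sets of mice, so the p-values measure only the spread between these 4 samples. Signals are linear intensities on the scale the authors deposited. A log2 change is the heterozygous mean minus the wild-type mean, and its error is the standard error (SE) of the limma fit.

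In this pathway a kinase of the Src family phosphorylates receptors and adaptors at the plasma membrane, the adaptors recruit an exchange factor that loads Ras with GTP, and Ras switches on tiers of protein kinases that end in MAP kinases. PI3-kinase and Akt and protein kinase C branch from the same receptors. Caveolins form the coat of caveolae, membrane pits in which the sodium pump, Src and other signalling proteins are held together. In heart these routes are best known for their part in growth of the muscle cell and in the response to cardiac glycosides.

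The hearts carried muscle transcripts at high level (Myh6, the main heart myosin, had 122362 and 120639 in the heterozygous pools and 97752 and 87078 in the wild-type pools), and marker genes of several cell types differed between the genotypes. Cardiomyocyte markers reached summed signals of 1193070 and 1204170 in the heterozygous pools and 808105 and 731885 in the wild-type pools. Of 24 tested cardiomyocyte markers, 19 rose and 5 missed the threshold, and their median log2 change was 0.67. Lymphocyte and thymus markers summed to 27647 and 27098 in the heterozygous pools, against 191129 and 193193 in the wild-type pools, and all 21 that were tested fell, with a median log2 change of -2.81. None of these 21 markers had both pools of a genotype under the floor of 36.25. The 21 tested cell cycle markers fell as well, with a median log2 change of -2.44. Endothelial markers rose in 10 of 13 cases, with a median log2 change of 0.91 and summed signals of 48874 and 43852 in the heterozygous pools and 26127 and 24840 in the wild-type pools. Fibroblast markers rose in 10 of 14 cases and 1 of them, Thy1, which T cells also carry, fell. Of 5 tested lung epithelium markers, 2 rose and 1 fell. The lung gene Scgb1a1 had 52300 and 44849 in the heterozygous pools, against 21076 and 17939 in the wild-type pools. Krt18 fell (log2 change -2.76) and Cdh1 did not pass (-0.29). Rag1, a gene of immature lymphocytes, had 3183 and 3251 in the heterozygous pools and 25556 and 28828 in the wild-type pools. In whole tissue a different number of cells of a type and different RNA per cell cannot be told apart. Nor can either be told apart from a different share of attached tissue, such as thymus or lung, in a pool.

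Of the 31 tested signalling genes, 6 rose, 5 fell and 20 did not pass (limma, Benjamini-Hochberg adjusted p under 0.05 over all tested probe sets). The genes that rose were Mapkapk2, Shc1, Cav1, Map2k3, Cav3 and Akt2, and those that fell were Map3k1, Sos1, Fyn, Prkcd and Nras. Over all 7453 tested probe sets, 38.3% passed, 17.9% as higher and 20.4% as lower, so the 35.5% of signalling genes that passed is a share near the background. The median log2 change was 0.09 over the 31 genes and 0.00 over all tested probe sets. The median absolute log2 change was 0.45 over the 31 genes and 0.46 over all tested probe sets. For 20 of the 31 genes both heterozygous pools lay on the same side of both wild-type pools, against 70.1% of all tested probe sets (34.6% with the heterozygous pools above and 35.5% with them below). These counts depend on how the arrays are brought to 1 scale. With arrays centred on the cardiomyocyte markers, 1 of the 31 genes was higher and 15 were lower, and with a common median 11 were higher and 2 were lower. Over all tested probe sets 1337 were higher and 1519 lower on the deposited scale, against 158 and 4296 with cardiomyocyte centring and 1945 and 1167 with a common median. The centring moved the median of all probe sets to -0.71 and ended the calls of Shc1 (0.38), Cav1, Map2k3, Cav3 and Akt2. Beside the 5 genes that fell on the deposited scale, the genes that passed as lower with the centring were Araf, Map2k1, Map2k2, Map2k4, Mapk8, Mapk9, Mapk14, Pik3ca, Akt1 and Rhoa. With no filter on dim probe sets 3 of the 31 genes passed as higher and 1 as lower, and the calls of Cav1, Map2k3, Cav3, Map3k1, Sos1, Prkcd and Nras ended at the same log2 changes.

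**Figure D1:**
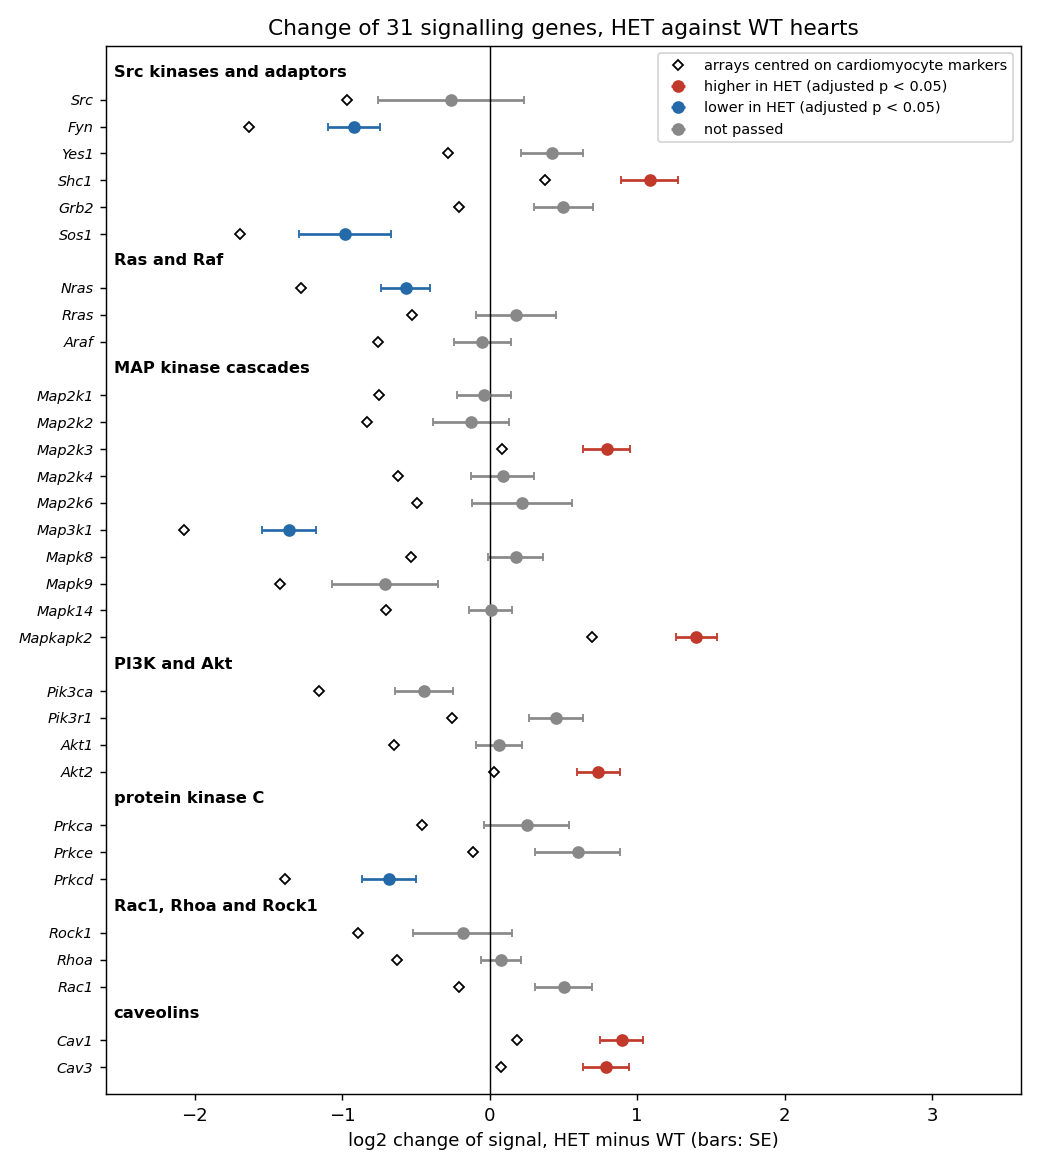
Log2 change of signal, heterozygous (HET) minus wild-type (WT), of the 31 tested signalling genes by role (x axis, with SE, n = 2 pools each), on the deposited scale as filled circles and with arrays centred on cardiomyocyte markers as open diamonds. On the deposited scale 6 genes passed as higher and 5 as lower, and 13 of the genes that did not pass and were above 0 lay below 0 after centring.

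Among the Src family kinases, Fyn fell and the others did not pass on the deposited scale. Fyn, a kinase of the plasma membrane that also works beside the T cell receptor, had signals of 1566 and 1319 in the heterozygous pools, against 2596 and 2849 in the wild-type pools. Both heterozygous pools lay below both wild-type pools, 1.89-fold lower in the mean (log2 change -0.92, SE 0.17, limma adjusted p = 0.00349). Lymphocyte and thymus markers were lower in the same pools (median log2 change -2.81), and their part in the Fyn result was not tested. Yes1, a close relative, had 858.6 and 966.9 in the heterozygous pools and 694.5 and 664.8 in the wild-type pools, without overlap (log2 change 0.42, SE 0.21, limma adjusted p = 0.149). Yes1 passed as higher with a common median (0.60, limma adjusted p = 0.0489) and turned to -0.29 with cardiomyocyte centring. The ratio of Fyn to Yes1 on the same array, which does not move with the scale of the array, was 2.54-fold lower in the heterozygous pools, and log2 ratios were 0.87 and 0.45 there and 1.90 and 2.10 in the wild-type pools. Src, the founding member of the family, was dim and varied within genotypes, at 210.0 and 564.7 in the heterozygous pools and 333.8 and 510.7 in the wild-type pools. The Src pools overlapped, and the SE of the log2 change of -0.26 was 0.49.

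Of the receptor and the adaptors that carry the signal to Ras, Shc1 rose, Grb2 did not pass on the deposited scale and Egfr was not tested. Egfr, the epidermal growth factor receptor, was too dim to be tested on any of 3 probe sets, and its brightest gave 400.9 and 303.4 in the heterozygous pools and 311.3 and 231.9 in the wild-type pools. Shc1, the adaptor that docks on phosphorylated receptors, had 1426 and 1413 in the heterozygous pools, against 672.4 and 667.1 in the wild-type pools. Shc1 rose 2.12-fold (log2 change 1.08, SE 0.19, limma adjusted p = 0.00252), and the pools of a genotype nearly coincided. A dimmer Shc1 probe set, not tested, gave 458.3 and 95.5 in the heterozygous pools and 219.8 and 271.8 in the wild-type pools, and its pools overlapped. Grb2, the adaptor that links Shc1 to the exchange factor, had 1868 and 2626 in the heterozygous pools and 1498 and 1638 in the wild-type pools. Grb2 pools did not overlap, and the log2 change of 0.50 (SE 0.20) did not pass on the deposited scale (limma adjusted p = 0.0809), passed with a common median (0.68) and quantile normalization (0.61), and turned to -0.21 with arrays centred on cardiomyocyte markers.

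Sos1, the exchange factor that loads Ras with GTP, had 382.5 and 269.4 in the heterozygous pools, against 646.2 and 621.8 in the wild-type pools. It fell 1.97-fold without overlap (log2 change -0.98, SE 0.31, limma adjusted p = 0.0350). This call ended without heterozygous pool 2 (-0.73), wild-type pool 1 (-0.95) or wild-type pool 2 (-1.01), and with a common median (-0.80), quantile normalization (-0.82) or cyclic loess (-0.88). The on-array ratio of Sos1 to its partner Grb2 was 2.79-fold lower in the heterozygous pools, at log2 values of -2.29 and -3.28, against -1.21 and -1.40 in the wild-type pools. The ratio of Shc1 to Grb2 went the other way, with log2 values of -0.39 and -0.89 in the heterozygous pools and -1.16 and -1.30 in the wild-type pools.

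Among the Ras and Raf genes 1 of 3 tested genes fell. Nras, a Ras GTPase found in most cells, had 4405 and 4335 in the heterozygous pools and 7422 and 5664 in the wild-type pools on its brighter probe set. The other probe set of Nras gave 889.0 and 912.8 in the heterozygous pools and 1492 and 1507 in the wild-type pools. Both probe sets fell, 1.48-fold on the brighter (log2 change -0.57, SE 0.17, limma adjusted p = 0.0258) and with a log2 change of -0.74 (SE 0.18, limma adjusted p = 0.0120) on the dimmer. The Nras call on the brighter probe set ended without heterozygous pool 1 (-0.58), heterozygous pool 2 (-0.56) or wild-type pool 1 (-0.37), with a common median (-0.39) and without the mean-variance trend of the fit (-0.57). Rras, a relative of Ras that acts on integrins, had overlapping pools at 1120 and 1943 in the heterozygous pools and 1488 and 1141 in the wild-type pools. Araf, a kinase directly below Ras, had 1016 and 959.1 in the heterozygous pools and 1095 and 952.2 in the wild-type pools, again with overlap, and passed as lower with cardiomyocyte centring (-0.76). The values of Rras and Araf thus spread within a genotype as far as between genotypes. Braf, another Raf kinase, was not tested, and its brighter probe set stood at 148.3 and 90.0 in the heterozygous pools and 118.9 and 105.8 in the wild-type pools.

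Among the tested genes of the MAP kinase cascades, the largest changes on the deposited scale were those of Mapkapk2, which rose, and Map3k1, which fell. Mapkapk2, the kinase that p38 MAP kinase activates to stabilise cytokine messages and phosphorylate small heat shock proteins, had 16491 and 14557 in the heterozygous pools, against 5784 and 5947 in the wild-type pools. This 2.64-fold increase was the largest of the 31 genes (log2 change 1.40, SE 0.14, limma adjusted p = 0.000134), and no pool overlapped. A second Mapkapk2 probe set rose as well, with 2118 and 1744 in the heterozygous pools and 1033 and 908.2 in the wild-type pools (log2 change 0.99, SE 0.19, limma adjusted p = 0.00387). Mapkapk2 was the 1 gene of the 31 that still passed as higher with arrays centred on cardiomyocyte markers (log2 change 0.69, limma adjusted p = 0.00216).

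Map2k3, which phosphorylates p38, had 5437 and 5076 in the heterozygous pools, against 2755 and 3326 in the wild-type pools. It rose 1.74-fold (log2 change 0.80, SE 0.16, limma adjusted p = 0.00473), and a second probe set rose too (log2 change 0.52, SE 0.15, limma adjusted p = 0.0221). The call on the brighter probe set ended without heterozygous pool 1 (0.75) and with arrays centred on cardiomyocyte markers (0.09). Mapk14, the p38 alpha kinase between these genes, was nearly level, at 3600 and 3572 in the heterozygous pools and 3531 and 3603 in the wild-type pools (log2 change 0.01, SE 0.15, limma adjusted p = 0.972), and its value turned to -0.07 with cyclic loess and -0.70 with cardiomyocyte centring. On-array ratios to Mapk14 were higher in the heterozygous pools for Mapkapk2 and Map2k3. The ratio of Mapkapk2 to Mapk14 was 2.63-fold higher in the heterozygous pools, with log2 ratios of 2.20 and 2.03 there and 0.71 and 0.72 in the wild-type pools. The ratio of Map2k3 to Mapk14 was 1.73-fold higher, with log2 ratios of 0.60 and 0.51 in the heterozygous pools and -0.36 and -0.12 in the wild-type pools. Map2k6, the other main activator of p38, had 380.1 and 456.9 in the heterozygous pools and 314.5 and 407.9 in the wild-type pools, with overlap (log2 change 0.22, SE 0.34, limma adjusted p = 0.648).

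Map3k1, a kinase at the top of the JNK branch, had 2522 and 1913 in the heterozygous pools, against 6193 and 5141 in the wild-type pools. It fell 2.57-fold, the largest decrease of the 31 genes (log2 change -1.36, SE 0.19, limma adjusted p = 0.000732). A dimmer probe set pointed the same way without passing, at 239.6 and 376.6 in the heterozygous pools and 413.7 and 745.9 in the wild-type pools (log2 change -0.89, SE 0.40, limma adjusted p = 0.112). The same heterozygous pools had lower lymphocyte and thymus markers (median log2 change -2.81). Their part in the decreases of Map3k1, Sos1 and Nras was not tested. Below Map3k1, the JNK kinase Mapk9 had 251.9 and 319.7 in the heterozygous pools and 531.0 and 405.8 in the wild-type pools, without overlap (log2 change -0.71, SE 0.36, limma adjusted p = 0.149), and it passed as lower with cardiomyocyte centring (-1.42). Mapk8, the other JNK kinase, had overlapping pools at 1861 and 2454 in the heterozygous pools and 1885 and 1895 in the wild-type pools. The ratio of Mapk9 to Mapk8 was 1.85-fold lower in the heterozygous pools, without overlap. Map2k4, which phosphorylates JNK, had 843.4 and 757.9 in the heterozygous pools and 756.2 and 747.8 in the wild-type pools (log2 change 0.09, SE 0.21, limma adjusted p = 0.776). The genes of MEK, the kinase tier directly below Raf, lay near 0 with overlapping pools: Map2k1 had 1721 and 1456 in the heterozygous pools and 1486 and 1778 in the wild-type pools (log2 change -0.04, SE 0.19), and Map2k2 had a log2 change of -0.13 (SE 0.26). Both MEK genes turned above 0 with a common median (0.14 and 0.05), and both passed as lower with cardiomyocyte centring (-0.75 and -0.83).

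**Figure D2:**
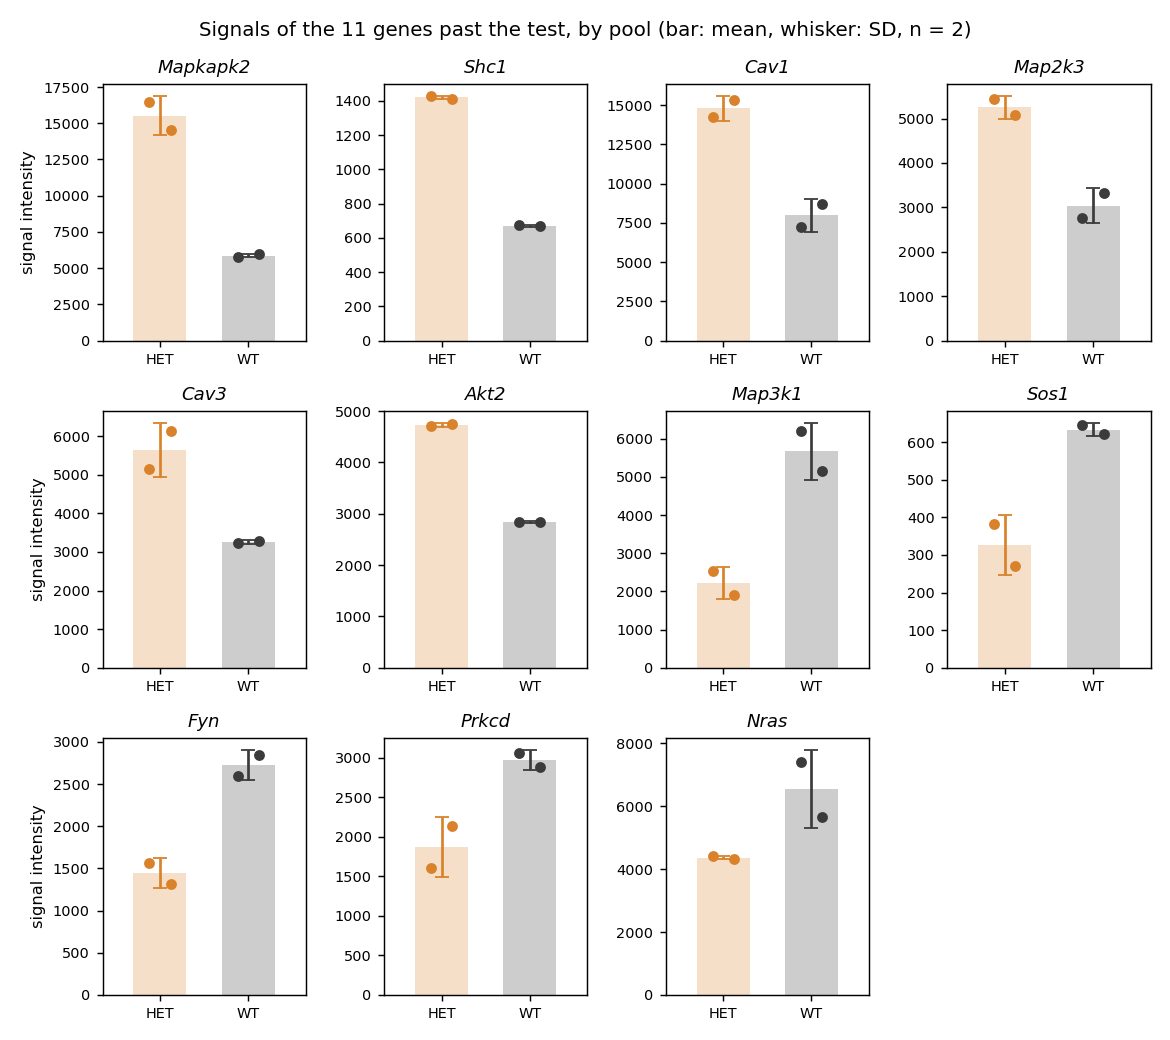
Signal intensity (y axis, from 0) of the 11 signalling genes that passed the test in every heterozygous (HET) and wild-type (WT) pool as points, with the mean as a bar and the SD as a whisker (n = 2). The 6 genes that were higher come first, and no gene has a heterozygous pool between its wild-type pools.

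Akt2 rose in the PI3-kinase branch while Akt1 did not pass. Akt2, the Akt kinase best known for insulin-driven glucose uptake, had 4701 and 4756 in the heterozygous pools, against 2830 and 2848 in the wild-type pools, 1.67-fold higher (log2 change 0.74, SE 0.15, limma adjusted p = 0.00439). Akt1, the isoform tied to growth and survival, had 3107 and 3532 in the heterozygous pools and 3312 and 3044 in the wild-type pools, with overlap (log2 change 0.06, SE 0.16, limma adjusted p = 0.790, turning to -0.65 with cardiomyocyte centring). The on-array ratio of Akt2 to Akt1 was 1.60-fold higher in the heterozygous pools, with log2 ratios of 0.60 and 0.43 there and -0.23 and -0.10 in the wild-type pools. With arrays centred on cardiomyocyte markers the Akt2 change was 0.03 and no longer passed.

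The PI3-kinase subunits leaned in opposite directions, and neither passed on the deposited scale. Pik3r1, the regulatory subunit, had 1396 and 1289 in the heterozygous pools and 981.0 and 980.0 in the wild-type pools (log2 change 0.45, SE 0.18, limma adjusted p = 0.0812), passed with a common median (0.63) and quantile normalization (0.59), and turned to -0.26 with cardiomyocyte centring. Pik3ca, the catalytic subunit, had 1011 and 843.3 in the heterozygous pools and 1244 and 1271 in the wild-type pools (log2 change -0.45, SE 0.19, limma adjusted p = 0.102), and it passed as lower with cardiomyocyte centring (-1.15). The pools of both genes were apart, and the ratio of Pik3r1 to Pik3ca was 1.86-fold higher in the heterozygous pools. A second Pik3ca probe set overlapped between the genotypes, with a log2 change of -0.13 (SE 0.23).

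Among the protein kinase C genes, Prkcd fell. Prkcd, the delta isoform, abundant in blood cells and linked to apoptosis, had 1606 and 2138 in the heterozygous pools and 3061 and 2887 in the wild-type pools. It fell 1.60-fold (log2 change -0.68, SE 0.18, limma adjusted p = 0.0185), and its second probe set fell as well (log2 change -0.91, SE 0.19, limma adjusted p = 0.00611), with 949.5 and 916.5 in the heterozygous pools and 1561 and 1963 in the wild-type pools. The call on the brighter probe set ended without heterozygous pool 1 (-0.48) or wild-type pool 1 (-0.64), and with a common median (-0.50). Lymphocyte and thymus markers were lower in the same pools (median log2 change -2.81), and their part in this result was not tested. Prkce, the epsilon isoform linked to protection of the heart from ischaemia, had 989.5 and 974.8 in the heterozygous pools and 485.9 and 869.0 in the wild-type pools, without overlap (log2 change 0.60, SE 0.29, limma adjusted p = 0.134). It passed without wild-type pool 2 (1.02) and with a common median (0.78), and turned to -0.11 with cardiomyocyte centring. Prkca, the alpha isoform, which dampens contraction, had overlapping pools at 838.5 and 1045 in the heterozygous pools and 592.6 and 1043 in the wild-type pools. The ratio of Prkcd to Prkce was 2.42-fold lower in the heterozygous pools and that of Prkcd to Prkca was 1.91-fold lower, both without overlap.

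Rac1, Rhoa and Rock1 did not pass in limma, and 1 of the 3, Rac1, had an unadjusted p under 0.05. Rac1, a GTPase of the actin cytoskeleton and of the oxidase that makes superoxide, was the brightest of them, at 33874 and 24227 in the heterozygous pools and 23276 and 17586 in the wild-type pools. Its pools were apart by a small margin (log2 change 0.50, SE 0.19, limma adjusted p = 0.0704), it passed without wild-type pool 1 (0.70) and with a common median (0.68), and it turned to -0.21 with cardiomyocyte centring. Rhoa, which drives contraction of the cytoskeleton, had 7579 and 7445 in the heterozygous pools and 6976 and 7252 in the wild-type pools on its brightest probe set (log2 change 0.08, SE 0.14, limma adjusted p = 0.682), a value below 0 under quantile normalization (-0.02), cyclic loess (-0.07) and cardiomyocyte centring (-0.63). The pools of the other Rhoa probe sets overlapped. Rock1, the kinase that RhoA activates, had 1242 and 1261 in the heterozygous pools and 938.2 and 2151 in the wild-type pools. The wild-type pools of Rock1 lay on either side of the heterozygous pools, and its log2 change was -0.78 when wild-type pool 1 was left out and 0.42 when wild-type pool 2 was.

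Both caveolin genes that were tested rose. Cav1, the caveolin of endothelium, fat and smooth muscle, had 14230 and 15357 in the heterozygous pools, against 7239 and 8729 in the wild-type pools, 1.86-fold higher (log2 change 0.90, SE 0.15, limma adjusted p = 0.00179). Endothelial markers were higher in the same pools (median log2 change 0.91). The lung gene Scgb1a1 was higher as well, and the part of lung tissue in the Cav1 result was not tested. Relative to the mean of the 13 endothelial markers on the same array, the log2 level of Cav1 was 2.46 and 2.72 in the heterozygous pools and 2.52 and 2.78 in the wild-type pools, so its increase over them was -0.05 and the pools overlapped. Cav3, the caveolin of muscle cells, had 5150 and 6139 in the heterozygous pools and 3225 and 3291 in the wild-type pools, 1.73-fold higher (log2 change 0.79, SE 0.15, limma adjusted p = 0.00429). A second Cav3 probe set rose too, with 3358 and 2944 in the heterozygous pools and 1735 and 1367 in the wild-type pools (log2 change 1.03, SE 0.18, limma adjusted p = 0.00261). A dim Cav1 probe set, not tested, gave 119.7 and 246.6 in the heterozygous pools and 89.4 and 260.5 in the wild-type pools, with overlap. The Cav3 call on the brighter probe set ended without heterozygous pool 2 (0.66). Relative to the mean of the 24 cardiomyocyte markers, the log2 level of Cav3 was -2.26 and -1.99 in the heterozygous pools and -2.26 and -2.16 in the wild-type pools. This is a difference of 0.08 with overlap, and the same measure for Cav1 differed by 0.19, also with overlap. Akt2 (0.03) and Map2k3 (0.09) differed as little by this measure. Against the endothelial markers, Cav3 (-0.16), Map2k3 (-0.15) and Prkce (-0.35) also had overlapping pools, and the remaining tested signalling genes apart from Cav1 did not. Relative to smooth muscle markers the pools of both caveolins overlapped (Cav1 0.29, Cav3 0.18). Relative to fibroblast markers both stayed higher without overlap (Cav1 0.40, Cav3 0.29), and relative to lymphocyte and thymus markers too (3.58 and 3.48). Cav1 and Cav3 moved by similar amounts: the log2 change of their ratio was -0.11 and its pools overlapped.

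The promoters of the caveolin genes are shown because both genes rose, and they differ in their letters. They are the 250 bases before the annotated start (the first listed start of Cav1), from RefSeq on GRCm38.p6, with capitals marking matches on either strand to an E-box (CANNTG), the site of basic helix-loop-helix factors, or a GC box (GGGCGG), the site of Sp1. Cav1 lies at chr6:17306085-17306334 on the plus strand and Cav3 at chr6:112459255-112459504 on the plus strand.
Cav1: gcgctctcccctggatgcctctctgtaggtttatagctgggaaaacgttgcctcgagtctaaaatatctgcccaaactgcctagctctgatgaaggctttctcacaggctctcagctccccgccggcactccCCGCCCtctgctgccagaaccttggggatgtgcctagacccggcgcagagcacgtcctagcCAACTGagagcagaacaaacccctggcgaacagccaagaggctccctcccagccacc
Cav3: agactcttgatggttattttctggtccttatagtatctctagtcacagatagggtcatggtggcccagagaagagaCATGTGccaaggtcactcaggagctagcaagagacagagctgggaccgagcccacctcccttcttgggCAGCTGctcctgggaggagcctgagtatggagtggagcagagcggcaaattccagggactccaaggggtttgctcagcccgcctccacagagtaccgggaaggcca
Cav1 held 1 E-box and 1 GC box, and Cav3 held 2 E-boxes and no GC box. An E-box occurred in 66.2% and a GC box in 32.7% of 32851 promoters of this length, and among the 28 tested signalling genes with a promoter in the table, 15 held an E-box and 18 a GC box. The shares count every listed promoter, while a signalling gene counts once, by its first listed start, so the units differ. Neither caveolin promoter held an AP-1 site (TGANTCA, in 6.75% of promoters) or a cAMP response element (TGACGTCA, in 1.55%).

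**Figure D3:**
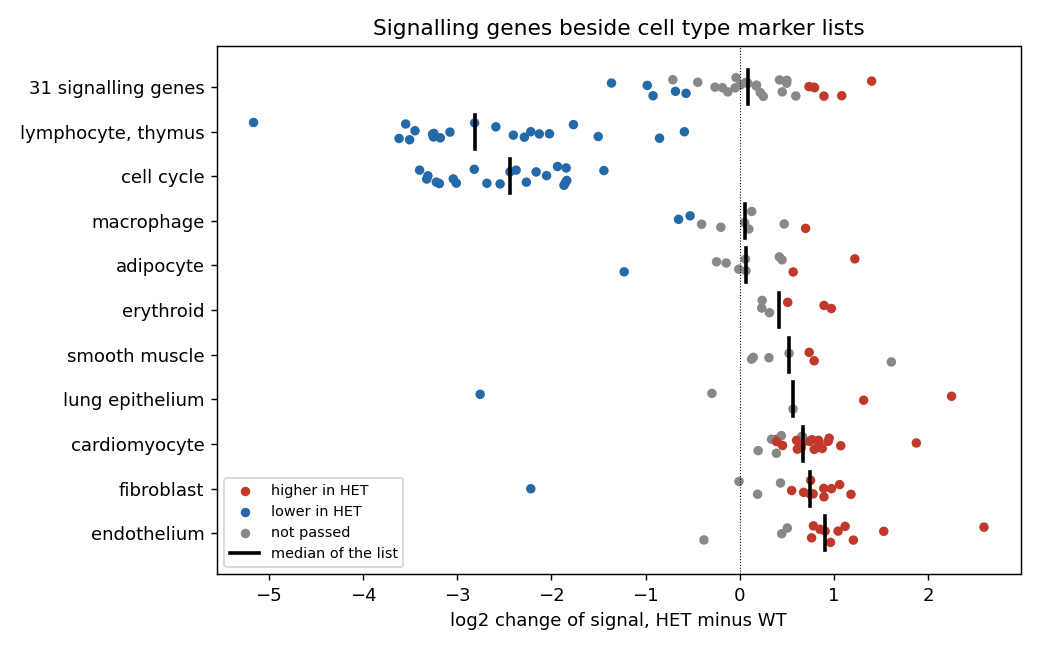
Log2 change of signal, heterozygous minus wild-type (x axis), of every tested signalling gene and of every tested marker gene of 10 cell type lists (points, coloured by call), with the median of a list as a black bar. Lymphocyte, thymus and cell cycle markers lie below 0, with medians of -2.81 and -2.44, and the 31 signalling genes spread around a median of 0.09 that turned to -0.62 with arrays centred on cardiomyocyte markers.

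The wider pathway was read from lists of other genes, by the brightest probe set of each gene. Of all 5692 tested genes 39.0% passed, and no list was tested against that share. The share was 34.8% for other MAP kinase genes, 41.2% for PI3-kinase, Akt and mTOR and 46.7% for receptors, ligands and adaptors. It was 28.6% for Src family and adhesion kinases, and lower for Ras regulators and MAP kinase phosphatases. These shares lay near or below the background. Those of caveolae and flotillins (62.5%) and of protein kinase C and phospholipase C (58.3%) lay above it. Of 8 tested genes of caveolae and flotillins, 5 rose and 3 did not pass (median log2 change 0.63, which turned to -0.08 with cardiomyocyte centring). Cavin2, a coat protein of caveolae, had 9026 and 6499 in the heterozygous pools, against 3149 and 3084 in the wild-type pools, 2.46-fold higher (log2 change 1.30, SE 0.18, limma adjusted p = 0.000798). The endothelial nitric oxide synthase gene Nos3, whose protein caveolin binds, had 1029 and 901.6 in the heterozygous pools, against 181.2 and 140.4 in the wild-type pools (log2 change 2.59, SE 0.33). Endothelial markers were higher in the same pools, and Nos3 is 1 of them.

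Receptors, ligands and adaptors rose in 5 of 15 cases and fell in 2 (median log2 change 0.48, which turned to -0.23 with cardiomyocyte centring). Grb7, an adaptor of ErbB receptors, had 884.3 and 1079 in the heterozygous pools, against 253.9 and 287.8 in the wild-type pools (log2 change 1.85, SE 0.28, limma adjusted p = 0.00110). Gab1, a docking protein that carries the Grb2 signal to PI3-kinase, rose 1.78-fold (log2 change 0.83, SE 0.16), and its dimmer probe set did not pass (0.56). The Gab1 call was lost with cardiomyocyte centring (0.12). Fgfr2, a fibroblast growth factor receptor, fell with a log2 change of -1.20 (SE 0.27), which did not hold when heterozygous pool 2 (-1.03) or wild-type pool 2 (-0.97) was left out, and the adaptor Dok1, of blood cells, had one of -1.05 (SE 0.36), a call that ended under 4 alternatives of scale or filter and in 3 of the 4 fits without a pool.

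Among 23 other genes of the MAP kinase cascades, 5 rose and 3 fell (median log2 change 0.00, and -0.71 with cardiomyocyte centring). Mapk12, the p38 gamma kinase of muscle, had 2412 and 2457 in the heterozygous pools, against 1096 and 982.6 in the wild-type pools, 2.35-fold higher (log2 change 1.23, SE 0.17, limma adjusted p = 0.000798). Mknk2, which phosphorylates the translation factor eIF4E, rose 1.87-fold (log2 change 0.91, SE 0.15), a call lost with cardiomyocyte centring (0.20). The decreases included Traf6, an adaptor of Toll-like and interleukin receptors, with 678.1 and 906.4 in the heterozygous pools and 2772 and 2467 in the wild-type pools (log2 change -1.74, SE 0.20), although its dimmer probe set did not pass (-0.51). Map4k1, a kinase of blood cells, fell as well (log2 change -1.13, SE 0.20). Among 12 phosphatases and feedback inhibitors of MAP kinases 1 rose, Dusp16 (log2 change 0.64, which turned to -0.06 with cardiomyocyte centring), and 2 fell, the phosphatases Dusp2 (-0.88) and Ptpre (-0.99), with a median log2 change of 0.11 (-0.60 with cardiomyocyte centring). The Dusp16 call ended without any 1 of the 4 pools (0.56 to 0.73), and that of Ptpre without heterozygous pool 1 (-0.95) or wild-type pool 2 (-0.76).

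Of 17 other genes of PI3-kinase, Akt and mTOR, 4 rose and 3 fell (median log2 change 0.20, and -0.50 with cardiomyocyte centring). Tsc2, the brake on mTOR, had 4931 and 4760 in the heterozygous pools, against 2432 and 2114 in the wild-type pools (log2 change 1.10, SE 0.16, limma adjusted p = 0.000877), and the call was lost with cardiomyocyte centring (0.39, limma adjusted p = 0.0538). Pdpk1, the kinase that activates Akt, had 2160 and 2247 in the heterozygous pools, against 5393 and 4579 in the wild-type pools (log2 change -1.17, SE 0.16, limma adjusted p = 0.000692). Pik3cd, the catalytic subunit of leukocytes, fell to 112.8 and 74.4 in the heterozygous pools, against 936.9 and 711.1 in the wild-type pools (log2 change -3.16, SE 0.45), and its other tested probe set did not pass (-0.70).

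Of 12 genes of protein kinase C and phospholipase C, 7 fell and 5 did not pass (median log2 change -0.82). Prkcb, the protein kinase C of B cell signalling, had 1197 and 1248 in the heterozygous pools, against 9324 and 7134 in the wild-type pools (log2 change -2.74, SE 0.18). Lymphocyte and thymus markers were lower in these pools, with all 21 past the test, and their part in this list was not tested. Ras GTPases and regulators fell in 3 of 16 cases and rose in 1 (median log2 change -0.26), with Rassf5, a Ras effector of lymphocyte adhesion, at -2.67 and the Ras GTPase-activating protein gene Dab2ip at 1.10, which did not hold when heterozygous pool 1 was left out (0.96) or with cardiomyocyte centring (0.39). The list of Src family and adhesion kinases also holds phosphatases and adhesion proteins, and 3 of its 14 tested genes fell and 1 rose. Its median log2 change was -0.10, which turned to 0.08 with a common median. The genes that fell included the phosphatase gene Ptprc of leukocytes (-3.18) and the kinase gene Ptk2b (-1.54), and no Src family kinase of the list passed. The gene that rose was Vcl of focal adhesions (1.02), with a dimmer probe set that did not pass (0.25). The Vcl call was lost with cardiomyocyte centring (0.31). With no filter on dim probe sets, the calls of Cavin2, Mknk2, Dab2ip, Fgfr2, Dok1, Dusp16, Dusp2 and Ptpre ended at the same log2 changes.

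**Figure D4:**
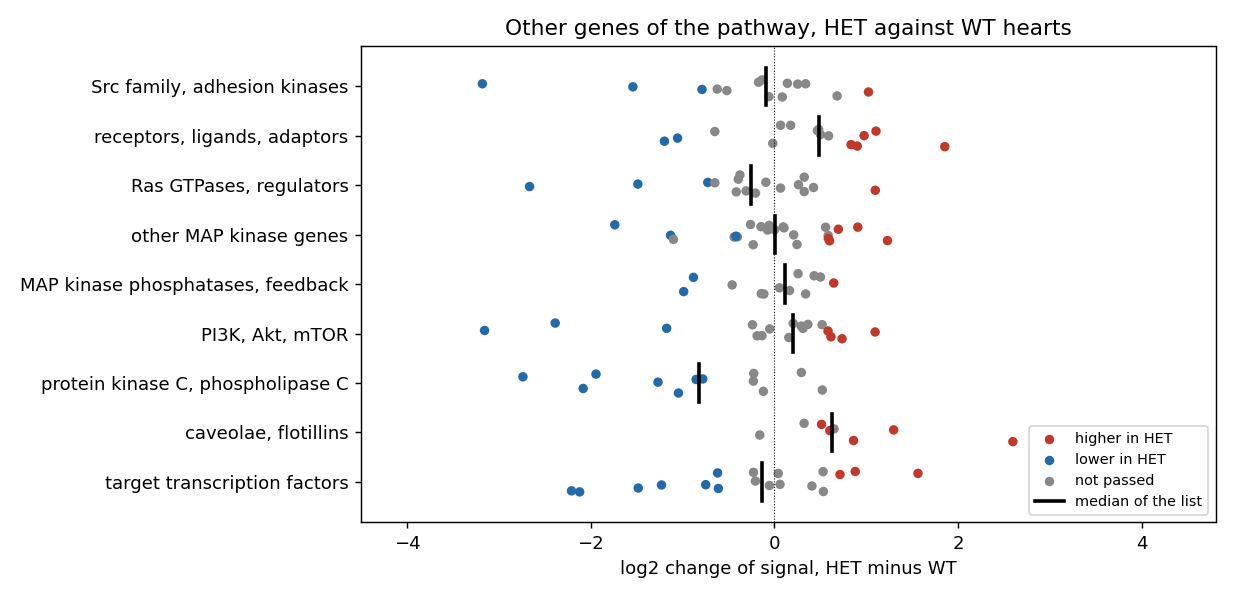
Log2 change of signal, heterozygous minus wild-type (x axis), of the tested genes of 9 wider pathway lists (points, coloured by call), with the median of a list as a black bar. The list of protein kinase C and phospholipase C (median -0.82) lies lowest, and that of caveolae and flotillins (0.63) lies highest on the deposited scale, with a median that turned to -0.08 with arrays centred on cardiomyocyte markers.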

How the data were processed

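The values the authors deposited are linear intensities of each probe set on each array. How they were summarised from the probes was not stated per the labels' protocols. The gene in which the mice were heterozygous is not reported here. Arrays had nearly equal trimmed means (2% off each end, controls removed: 1486.5 to 1488.07), so the deposited scale was kept. Of 12488 probe sets, 66 controls and the 40% of the rest with the lowest mean over all pools were left out, and 7453 were tested. Signals under 36.25 (the 10th percentile) were raised to it before log2, which touched 16 tested values, none of them of a signalling gene. limma 3.58.1 (lmFit, eBayes with trend; R 4.3.3) was fitted with genotype as the only term and checked on simulated data. With 2 pools a genotype the smallest two-sided p of an exact permutation test is 0.333. Of the probe sets, 10855 carried 1 symbol, 10839 of them found by gene ID in GRCm38.p6, 396 several and 1237 none. The brightest probe set stood for a gene. Named genes were all members, and from the wider lists up to 2 genes with the smallest p in each direction, and bright markers, with Thy1 chosen after its values were seen. Members, lists and ratios were chosen with earlier results of these data known. Alternatives covered scaling, floor, filter, moderation, threshold, probe sets, each pool left out and pool number as a block. Plots used matplotlib 3.10.9.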

Additional observations from a re-analysis of the deposited data

How the results depend on the processing

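On the deposited scale 6 of the 31 genes were higher and 5 lower, with a median log2 change of 0.09. A common median gave 11, 2 and 0.27, and centring on cardiomyocyte markers 1, 15 and -0.62, with 158 higher and 4296 lower among all tested probe sets. The median was 0.23 with quantile normalization and 0.18 with cyclic loess. With no filter on dim probe sets, 3 genes were higher and 1 lower (482 and 724 of all probe sets), and at an adjusted p under 0.01, 6 were higher and 2 lower (691 and 968). Leaving out each pool in turn gave 5 to 7 higher and 3 to 4 lower genes, medians of 0.052 to 0.26, and 630 to 1125 higher and 1077 to 1164 lower probe sets. Fits without a pool assume that the lone pool varies like the other genotype. The log2 changes that turned sign among the 31 genes were those of genes that had not passed. Of the named genes of the wider lists, Dusp16 and Eif4ebp2 turned, and other genes of these lists were not followed under the alternatives. With a common median they were Araf (0.13), Map2k1 (0.14) and Map2k2 (0.053). With quantile normalization they were Araf (0.11), Map2k1 (0.10), Map2k2 (0.015) and Rhoa (-0.016). With cyclic loess they were Araf (0.039), Map2k1 (0.0012), Mapk14 (-0.067), Akt1 (-0.00062) and Rhoa (-0.073). With cardiomyocyte centring they were Yes1 (-0.29), Grb2 (-0.21), Rras (-0.53), Map2k4 (-0.62), Map2k6 (-0.49), Mapk8 (-0.53), Mapk14 (-0.70), Pik3r1 (-0.26), Akt1 (-0.65), Prkca (-0.46), Prkce (-0.11), Rhoa (-0.63), Rac1 (-0.21), Dusp16 (-0.064) and Eif4ebp2 (-0.094). Without 1 pool the log2 change ranged from -0.98 to 0.45 for Src, -0.22 to 0.58 for Rras, -0.17 to 0.091 for Map2k1, -0.43 to 0.18 for Map2k2, -0.023 to 0.38 for Mapk8, -0.031 to 0.15 for Akt1, -0.15 to 0.052 for Araf, -0.0069 to 0.022 for Mapk14, -0.16 to 0.66 for Prkca and -0.78 to 0.42 for Rock1. With the pool number as a replicate block, 7 genes were higher and 5 lower, the addition being Rac1 (0.50, limma adjusted p = 0.0103), and deviations of pools with the same number correlated at 0.158 across probe sets, which with 2 pairs does not show pairing. Both other floors, robust moderation and the mean over a gene's probe sets left all 31 genes with the same direction and call. The cause of these changes was not tested. The 2 pools a genotype limit the precision, and dim probe sets such as those of Egfr and Braf could not be tested.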

Other observations

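Transcription factors at the end of the pathway moved in both directions. Of 18 tested genes of this list, 3 rose and 7 fell (median log2 change -0.13, which turned to 0.05 with a common median). The share that passed was 55.6%, against 39.0% of all tested genes. Jun, a subunit of the AP-1 factor, had 1645 and 1431 in the heterozygous pools, against 466.2 and 579.3 in the wild-type pools (log2 change 1.56, SE 0.22, limma adjusted p = 0.000787). Mef2a, a factor of muscle genes, had a log2 change of 0.71 (SE 0.14) and was 1.64-fold higher, which did not hold when heterozygous pool 2 was left out (0.68) or with arrays centred on cardiomyocyte markers (0.00). Ets1, a factor of lymphocytes and endothelium, fell on both of its probe sets, with 1090 and 1150 in the heterozygous pools and 3880 and 6110 in the wild-type pools on the brighter (log2 change -2.12, SE 0.22) and a log2 change of -2.34 on the dimmer. Ets2 fell 2.35-fold (log2 change -1.23, SE 0.17).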
